A study of Mus musculus with 9 samples.

Results

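The miRNome of healthy mouse tibialis anterior (TA), a fast muscle at the front of the lower leg, was described from the small RNA libraries of 4 control mice. No tumor-bearing library was used and no groups were compared. A mature miRNA was taken as expressed when it had more than 32 counts in at least 1 of the 4 libraries, which held for 289 of the 1915 mature miRNAs listed in the count tables. The series has 9 small RNA libraries, and the 4 used here are those named Control 1 to Control 4. The control mice carried no tumor (tumor development of 0 days), received 100 µl of PBS in each flank and were sampled 22 days later. The labels give the strain as C57BL/6J and an age at injection of 10 weeks, whereas the series' design text gives C57BL/10 males injected at 8 weeks. No allele or transgene is named for these mice. RNA came from whole TA muscle, so fibers, vessels, connective tissue and blood cells were sequenced together.

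miRNAs are short RNAs that lower the translation and stability of mRNAs. A hairpin precursor is cut to a duplex of a 5p and a 3p strand (its arms), and usually the loading of a strand into an Argonaute protein decides which is kept. Bases 2 to 8 of the mature miRNA, the seed, pair with the target mRNA, and miRNAs with the same seed form a family. Skeletal muscle is known for a set of muscle-enriched miRNAs, the MyomiRs, which include miR-1, miR-133, miR-206, miR-208, miR-486 and miR-499 and act in muscle differentiation and growth.

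The libraries held 6474473, 6548379, 5928490 and 4992339 counts in Control 1 to Control 4, and 1 count was worth 0.1527 to 0.2003 CPM, the count scaled by the library total. Of the 1915 rows, 820 had a count in any library and 1095 were at 0 in all 4. The 289 expressed miRNAs took over 99.9% of the counts of each library, from 99.9662% in Control 2 to 99.9725% in Control 3, and 247 of them passed the threshold in all 4 libraries. Just inside the threshold were miR-15b-3p with a highest count of 33, miR-652-3p with 34 and miR-146b-5p with 35. Just outside it were let-7f-1-3p with 32, and miR-33-5p and miR-1843a-3p with 31 each.

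The mature sequences of some abundant miRNAs, family members and the MyomiR miR-133b-3p are shown because the seed defines each family. They were read from RefSeq on GRCm38.p6, which held 256 of the 289 expressed miRNAs. They run 5′ to 3′ with the seed in capitals. The 2 members of the miR-10 and miR-27 families share all bases but 1, as given after the list.
miR-22-3p: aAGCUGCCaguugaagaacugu
miR-10b-5p: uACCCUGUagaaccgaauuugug
miR-10a-5p: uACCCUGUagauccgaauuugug
miR-26a-5p: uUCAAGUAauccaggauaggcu
miR-27b-3p: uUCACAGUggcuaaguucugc
miR-27a-3p: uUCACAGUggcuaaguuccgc
miR-181a-5p: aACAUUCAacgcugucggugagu
miR-181b-5p: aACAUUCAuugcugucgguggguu
let-7f-5p: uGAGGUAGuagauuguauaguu
miR-30a-5p: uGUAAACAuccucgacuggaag
miR-191-5p: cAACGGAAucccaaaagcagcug
miR-133b-3p: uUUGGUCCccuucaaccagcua

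Counted from 1 at the 5′ end, miR-10a-5p differs from miR-10b-5p by A12U and miR-27a-3p from miR-27b-3p by U19C. In let-7a-5p the change from let-7f-5p is A12G. The expressed miRNAs with a sequence were 19 to 26 bases long, and 162 of them (63.3%) had 22 bases, so CPM was compared between miRNAs without a correction for length.

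A few miRNAs held most of the counts. Ranked by mean CPM, the first miRNA took 22.6% ± 4.55 (SD, n = 4 here and below) of a library and the first 5 took 57.3% ± 1.45. The first 20 took 92.1% ± 0.642 and the first 100 took 99.4% ± 0.0560. Between 4 and 5 miRNAs were enough to reach 50% of the counts of a library, 16 to 18 reached 90%, and 74 to 83 reached 99%. The same 20 miRNAs were the 20 most abundant in each of the 4 libraries. Below them the levels fell steeply: 48 expressed miRNAs had a mean of at least 1000 CPM, 110 of at least 100 CPM, and 56 were under 10 CPM, with a median of 43.6 CPM.

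miR-22-3p, a miRNA known from heart and skeletal muscle, had 282617 CPM in Control 1, 239948 in Control 2, 179047 in Control 3 and 201560 in Control 4. It was the most abundant miRNA in 3 of the 4 libraries. Its 95% Wilson interval in Control 1, 28.2 to 28.3% of counts, was far narrower than the differences between libraries. Its hairpin Mir22 lies on chromosome 11 (GRCm38 chr11:75463716-75463810, + strand), in an exon of the noncoding Mir22hg and of an annotated transcript of Tlcd2. miR-10b-5p, whose hairpin lies in the HoxD cluster within introns of Hoxd4 and Hoxd3 (chr2:74726070-74726137, + strand), had 101377, 125583, 192277 and 170363 CPM in Control 1 to 4. It ranked first in Control 3 and second elsewhere, and it ran opposite to miR-22-3p: low in Control 1 and 2, high in Control 3 and 4, with no overlap between those pairs. miR-10a-5p, from a hairpin on chromosome 11 (chr11:96317165-96317274, + strand) within no host gene on its strand, was likewise lower in Control 1 and 2, with 42782, 50689, 59146 and 62922 CPM.

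The row of miR-486a-5p, a muscle-enriched miRNA from an intron of Ank1, held 61808, 61186, 75255 and 81715 CPM in Control 1 to 4, again lower in the first pair of mice. miR-26a-5p, known to act in myogenic differentiation through Ezh2, had 64202, 67919, 53013 and 55968 CPM. It comes from 2 hairpins, in an intron of Ctdspl and in an exon of Ctdsp2, which the counts cannot separate. miR-143-3p, best known from smooth muscle, had 57115, 59979, 60485 and 48065 CPM and was lowest in Control 4.

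Of the next miRNAs, miR-27b-3p, known to target Pax3 in muscle progenitors, had 32858 CPM ± 1787, and miR-126a-5p, from an exon of the endothelial gene Egfl7, had 28212 CPM ± 1179. miR-378a-3p, from an intron of Ppargc1b, a regulator of mitochondrial genes, had 27098 CPM ± 3433, and miR-181a-5p had 26169 CPM ± 2704. The last 3 of these differed by less than the SD of miR-378a-3p. miR-133a-3p (21809 CPM ± 5228) and miR-30a-5p (20741 CPM ± 3268) did not differ beyond their spread, nor did miR-191-5p (17127 CPM ± 4033) from miR-30a-5p. They were followed by let-7f-5p with 13210 CPM ± 1069, miR-16-5p, a repressor of cell cycle genes, with 6531 CPM ± 636, miR-378c with 5219 CPM ± 999, miR-133b-3p with 4961 CPM ± 1172 and miR-127-3p with 4731 CPM ± 429. The last 3 overlapped within their spread.

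**Figure D1:**
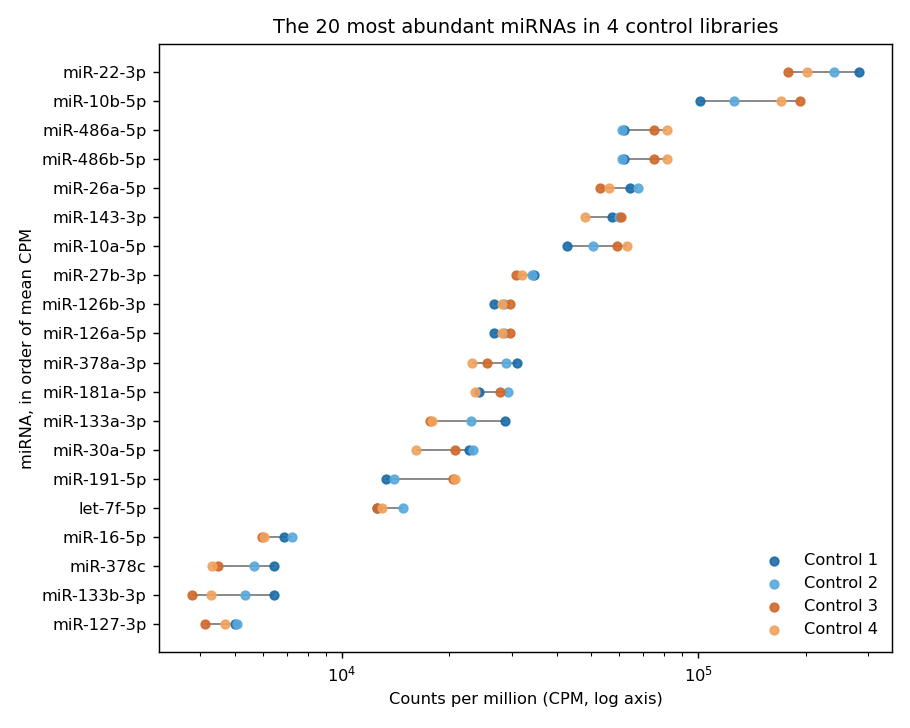
CPM (log axis) of the 20 most abundant miRNAs, each row a miRNA and each point 1 control library, with a line from the lowest to the highest. miR-22-3p spans 179047 to 282617 CPM and miR-10b-5p 101377 to 192277 CPM, and the order of the libraries is reversed between them.

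Some rows held equal or nearly equal counts. The rows of miR-486b-5p and miR-486a-5p held equal counts in each library (400176, 400671, 446147 and 407948). Equal counts were also found for the 3p arms of miR-199a and miR-199b, and for let-7a-1-3p with let-7c-2-3p. The hairpins of the miR-486 pair, Mir486 and Mir3107, overlap on opposite strands of chromosome 8 (chr8:23142555-23142682, + strand, and chr8:23142573-23142662, - strand). miR-126a-5p and miR-126b-3p, from hairpins that also overlap on opposite strands (chr2:26591357-26591429, + strand, and chr2:26591363-26591420, - strand), had 173057 and 173078 counts in Control 1 and differed by 13 to 21 counts in all. The rows miR-486b-5p and miR-126b-3p together took 8.85% of the counts of Control 1 and 11.0% of Control 4. The mapping options given in the study's methods name no limit to 1 strand, and the part of mapping in the counts of opposite-strand rows was not tested. Whether both hairpins of such a pair are processed in TA muscle cannot be told apart from these counts. Other opposite-strand partners were not alike: miR-3074-5p had 30.7 to 35.4% of the counts of miR-24-3p, and miR-3071-3p had 3.90 to 4.60% of those of miR-136-5p.

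The 256 expressed miRNAs with a sequence fell into 200 seed families. Only 32 of these had more than 1 expressed member, with 88 miRNAs in all, and the largest, let-7 and miR-98, had 9. The 10 leading families, counting each of the 33 miRNAs without a sequence on its own, took 80.4% of the counts. Members without a sequence stood apart from their relatives, so the family counts, order and lead shares depend on which sequences were held. Grouped by name, miR-378 took 3.23% ± 0.442, miR-133 2.68% ± 0.639 and miR-30 2.57% ± 0.397 of the counts. miR-22-3p alone and the miR-10 family led with 22.6% ± 4.55 and 20.1% ± 4.98. The miR-10 share was 14.4, 17.6, 25.1 and 23.3% in Control 1 to 4, so that it was smaller than that of miR-22-3p in Control 1 and 2 and larger in Control 3 and 4. The 2 rows of miR-486-5p added up to 14.0% ± 2.03, or 6.999% ± 1.016 if their equal counts were taken at 1 row.

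The lead member took over 90% of the family in 9 of the 32 families with more than 1 expressed member, with a median of 72.9% and a range of 31.5 to 98.8%. miR-26a-5p made up 98.8% of the miR-26 family (6.10% ± 0.706 of a library), miR-27b-3p 96.2% of the miR-27 family (3.42% ± 0.191) and miR-181a-5p 91.3% of the 4-member miR-181 family (2.87% ± 0.288). miR-10b-5p made up 73.2% of its family. The let-7 family, which restrains growth genes and is known for its role in developmental timing, was spread more evenly: it took 2.61% ± 0.209 of a library, and let-7f-5p made up 50.7% of it. All 9 listed members grouped by name as let-7 and miR-98 were expressed, from let-7f-5p down through let-7a-5p (3433 to 4185 CPM), let-7i-5p (2854 CPM ± 172) and let-7c-5p (2452 CPM ± 280) to let-7e-5p (183 CPM). let-7a-5p and let-7f-5p differ only at base 12, outside the 8 bases that had to match in the mapping. Reads of either, with or without an error at that base, could therefore count at the other row. The same holds for miR-10a-5p and miR-10b-5p. How far this shaped the shares within families was not tested. The miR-15/16 seed family had 6 expressed members and 0.798% ± 0.0819 of the counts, of which miR-16-5p made up 81.8%.

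**Figure D2:**
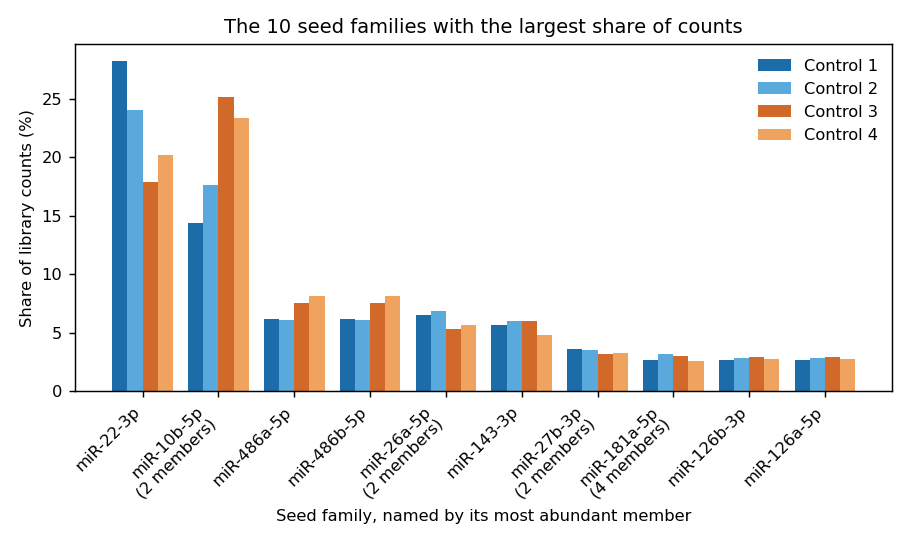
Share of library counts (%) of the 10 leading seed families, named by their most abundant member, with 1 bar per control library. The miR-22-3p bars fall from 28.3% in Control 1 to 17.9% in Control 3, the miR-10 bars rise from 14.4% to 25.1% between the same libraries, and the paired rows of miR-486 and of miR-126 have bars of equal height.

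Arm usage was described for the 173 hairpins with both arms listed, each arm from 1 hairpin gene and at least 1 arm expressed. The ratio was the log2 of 5p over 3p counts after adding 1 count to each. In 87 hairpins the 5p arm was more than 2-fold above the 3p arm in all 4 libraries, in 66 the 3p arm was, 12 stayed within 2-fold in every library and 8 crossed that limit between libraries. The major arm was the same in all 4 libraries for 168 hairpins. The median hairpin favored its major arm 35.8-fold, 54 hairpins did so over 100-fold and 17 over 1000-fold. In 25 hairpins the minor arm was at 0 in all 4 libraries. Those arms were also set to 3 counts per library, the upper 95% limit for a count of 0, in place of the 1 count added. The median was then 31.0-fold, and 50 and 15 hairpins passed 100- and 1000-fold.

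Hairpins that favored 5p most strongly included both miR-10 hairpins. Mir10b had 656363, 822368, 1139913 and 850511 counts on 5p and 29, 23, 17 and 16 counts on 3p in Control 1 to 4, a log2 ratio of 15.26 ± 0.67. Mir10a followed with a log2 ratio of 12.73 ± 0.27, from a mean of 53885 CPM on 5p and 7.70 CPM on 3p. The arms of the miR-10 hairpins are shown because the sequence of the discarded 3p arm differs between them within the seed, while the kept 5p arms share theirs.
miR-10b-3p: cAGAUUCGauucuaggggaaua
miR-10a-3p: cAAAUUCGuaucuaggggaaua

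Mir192, Mir149 and Mir191 came next with log2 ratios of 11.83 ± 0.50, 11.57 ± 0.20 and 11.40 ± 0.37. For Mir192 the 3p arm had 1 count in Control 1 and 0 elsewhere against 17578 counts on 5p over the 4 libraries, a ratio of 17578 with a 95% exact interval of 3154 to 694333. For Mir149 the 3p arm had 1 count in each library, and the ratio over all libraries was 6122 (2391 to 22470). Such ratios rest on very few reads of the minor arm, and the intervals cover counting error only.

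On the 3p side, Mir143 had 369788, 392764, 358585 and 239957 counts on 3p and 10, 6, 4 and 3 on 5p, a log2 ratio of -15.70 ± 0.47. Mir133b, a MyomiR hairpin on chromosome 1 (chr1:20682769-20682887, + strand), had 41678, 34885, 22546 and 21352 counts on 3p and 0 on 5p in every library. Over the group, its mean CPM on 3p was 9783-fold higher than the mean CPM of 3 counts per library. Mir23a, Mir25 and Mir23b followed with log2 ratios of -11.20 ± 0.97, -10.50 ± 1.10 and -10.40 ± 0.28, each with at most 5 counts on 5p in a library.

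Few abundant hairpins kept both arms. Mir151 had 12063, 12681, 10359 and 9537 counts on 5p and 10319, 9269, 8535 and 6803 on 3p, so that 5p was 1.28-fold above 3p and above it in each library. Mir28a leaned to 5p by a log2 ratio of 0.92 ± 0.10. Mir361 also leaned to 5p (1.02 ± 0.32), and Mir30e leaned to 3p (-1.05 ± 0.14), with 1013 CPM of miR-30e-3p and 493 CPM of miR-30e-5p. Mir30e thus ran against Mir30a, whose 5p arm had 20741 CPM and whose 3p arm had 1583 CPM.

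In 5 hairpins the major arm was not the same in all libraries, namely Mir345, Mir708, Mir106b, Mir872 and Mir299a. Mir872, the most abundant of them, had 546 counts on 5p and 521 on 3p in Control 1, and 352 against 616 in Control 3. Its 3p share was 48.8, 52.1, 63.6 and 59.2% in Control 1 to 4, higher in the last pair of mice. The 5p and 3p sequences are shown as an example of arms kept at near equal levels.
miR-872-5p: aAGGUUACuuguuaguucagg
miR-872-3p: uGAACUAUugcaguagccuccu

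The base at the 5′ end of the arms was compared over the 127 hairpins with a sequence for both arms. The major arm began with U in 65 hairpins (51.2%) and the minor arm in 25 (19.7%). A began 23.6% of major and 36.2% of minor arms. Of all 1623 listed miRNAs with a sequence, 40.2% began with U, and of the 256 expressed ones 43.8% did. Summed over the 173 hairpins, 5p arms took 44.1, 48.6, 58.9 and 57.9% of the counts in Control 1 to 4, a split that miR-22-3p and miR-10b-5p dominate by their abundance.

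**Figure D3:**
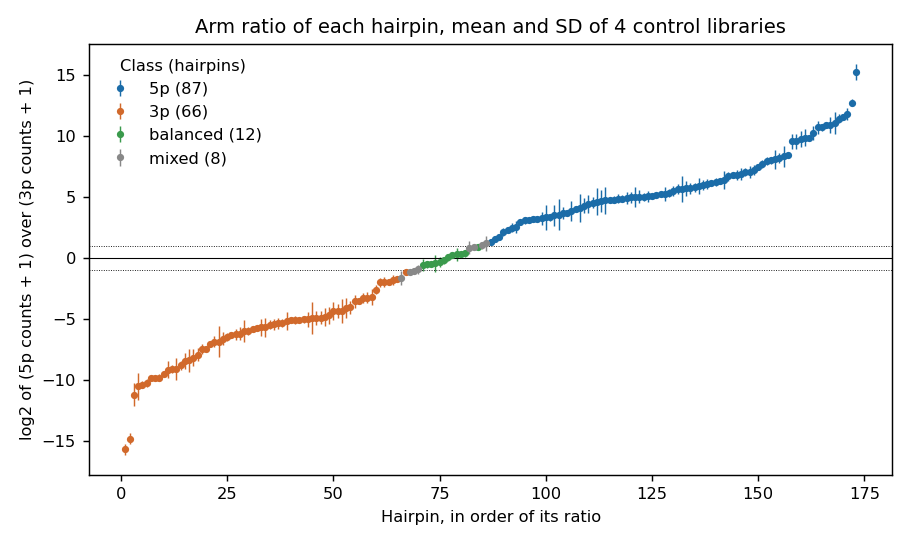
Log2 ratio of 5p to 3p counts (1 count added to each) of 173 hairpins in order of their ratio, as mean and SD of 4 control libraries, colored by class, with dotted lines at a 2-fold difference. The ratios run from -15.70 (Mir143) to 15.26 (Mir10b), and only 12 hairpins stay between the dotted lines in all libraries.

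Hairpins that lie close together on a strand are often transcribed as 1 precursor, which makes their levels of interest side by side. Clusters were taken from the GENCODE annotation as hairpin genes on the same strand at most 10 kb from the next. In all, 34 clusters had at least 2 hairpins with an expressed arm, 103 hairpins together. With the major arm as the level of a hairpin, the ratio of the highest to the lowest was taken as a mean over the libraries. This mean ratio had a median of 16.5-fold and was over 10-fold in 22 clusters, over 100-fold in 7 and under 2-fold in 5. Where a mature miRNA comes from several hairpins, its row holds the reads of all of them, so these ratios are not independent. The miR-181a and miR-181b clusters enter with the same rows and the same ratio, and the clusters of miR-1a and miR-133a share miR-133a-3p. In 9 clusters some hairpins had a 5p and others a 3p major arm by mean CPM. These include clusters where the arms of a hairpin were close, as in Mir1a-1 (22.8 CPM on 5p, 22.2 on 3p) and Mir106b (18.8 and 21.1 CPM).

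The Mir143 and Mir145a cluster was the most abundant and combined both arm types. miR-143-3p had 56411 CPM ± 5758 and miR-145a-5p 1860 CPM ± 232, and the ratio was 28.1, 31.7, 39.7 and 24.1 in Control 1 to 4. Within the Mir23b to Mir24-1 cluster (chr13:63300484-63301275, + strand, within 2010111I01Rik), miR-27b-3p had 32858 CPM ± 1787, miR-23b-3p 556 CPM ± 46.0 and miR-24-3p 328 CPM ± 16.7. The 100-fold ratio of miR-27b-3p to miR-24-3p stayed between 96.7 and 105 in the 4 libraries, although miR-24-3p also counts reads of Mir24-2. In the sister cluster on chromosome 8, from Mir23a to Mir24-2, the highest and the lowest hairpin differed by 4.01-fold ± 0.298, with miR-27a-3p at 1315 CPM and miR-23a-3p at 976 CPM.

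miR-181a-5p and miR-181b-5p each come from 2 clusters, on chromosome 1 (chr1:137966455-137966718) and chromosome 2 (chr2:38852735-38853918), both on the + strand. Their counts cannot be divided between the clusters, and miR-181a-5p was 16.5-fold ± 1.99 above miR-181b-5p. Control 1 had the lowest ratio, 13.5, and the other libraries had 17.4 to 17.6.

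The clusters of the MyomiRs miR-1a and miR-133a were the most unequal of the 34. They lie on chromosome 2 (chr2:180389048-180398482, + strand) and on chromosome 18. miR-133a-3p, which comes from both, had 28745, 22943, 17652 and 17895 CPM in Control 1 to 4, whereas miR-1a-3p, which also comes from both, had 21.6, 22.9, 19.6 and 24.6 CPM. The ratio of miR-133a-3p to miR-1a-3p was 1329, 1002, 902 and 726 in Control 1 to 4. miR-1a-1-5p, the other arm of Mir1a-1, was at 22.8 CPM ± 2.65, a level like that of the 3p arm. These ratios rest on the low counts of miR-1a-3p, which may not stand for its level in the muscle.

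The imprinted Dlk1-Dio3 region on chromosome 12, whose miRNAs are known for expression from the maternal allele, held 2 clusters. Mir341 and Mir1247 lay in the region outside both, and Mir3071 overlaps Mir136 on the opposite strand, with at most 35.7 CPM on an arm of any of the 3. Chromosome 12 held more hairpins with an expressed arm (33 of 233) than any other chromosome. In the cluster from Mir673 to Mir136 (chr12:109571990-109595388, + strand), 7 of 14 hairpins had an expressed arm, and miR-127-3p exceeded miR-673-3p by 286-fold ± 51.8. Its abundant hairpins were Mir127 (4731 CPM), Mir434 (1905 CPM ± 295) and Mir136 (665 CPM ± 157). The cluster from Mir379 to Mir410 (chr12:109709060-109743795, + strand) is the largest, with 38 hairpins. Of these, 18 had an expressed arm, 7 of them favoring 5p and 8 favoring 3p. Mir411 had 767 CPM and Mir539 4.29 CPM, a ratio of 188-fold ± 49.1.

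**Figure D4:**
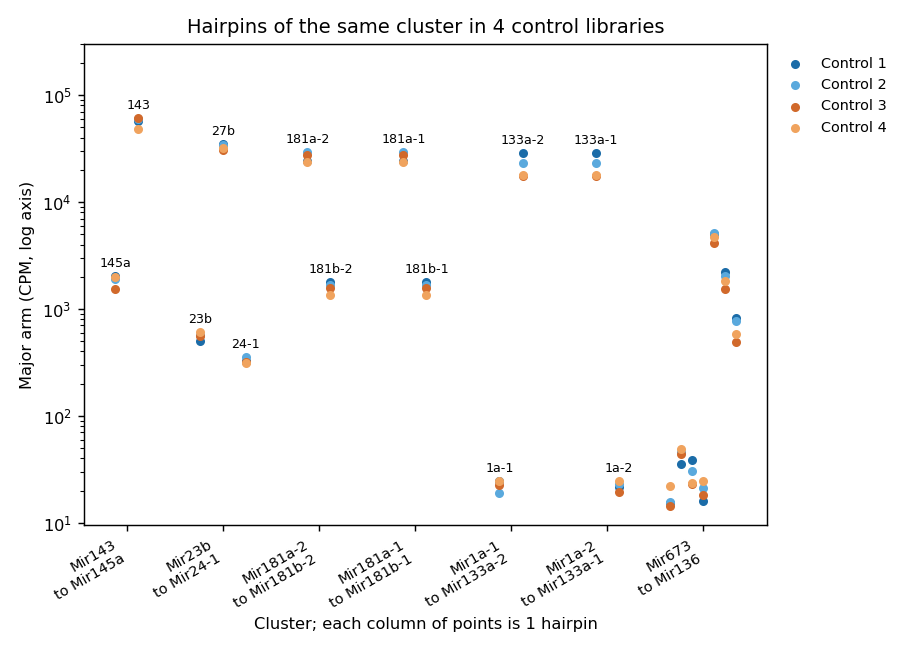
CPM (log axis) of the major arm of each hairpin with an expressed arm in 7 clusters, in genome order, 1 column of points per hairpin and 1 point per control library. miR-133a-3p lies at 17652 to 28745 CPM above the miR-1a hairpins at 19.1 to 24.8 CPM, while the points of a hairpin lie close together across libraries.

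By position, the 233 hairpin genes with an expressed arm were most often inside protein-coding genes, 78 in introns and 23 in exons. Noncoding genes held 21 in introns and 35 in exons, and 76 lay within no host gene on their own strand. Genes on the opposite strand were not counted as hosts, so the 76 include hairpins such as Mir126b, opposite Egfl7. After chromosome 12, chromosome 11 (25 hairpins) and the X chromosome (23) held the most.

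The tissue label was checked against marker miRNAs. Fewer cells of a type and less RNA per cell cannot be told apart in these bulk libraries. Of 9 MyomiR rows, 7 were expressed, and they summed to 158832, 150680, 171994 and 185636 CPM in Control 1 to 4, with miR-486a-5p as the most abundant. With the equal counts of miR-486a-5p and miR-486b-5p taken once, the sums were 97023, 89494, 96740 and 103921 CPM. miR-133a-3p was 4.18- to 4.64-fold above miR-133b-3p. miR-208b-3p, from an intron of a slow myosin gene and known from heart and slow fibers, had 21, 42, 42 and 20 counts, and miR-499-5p, likewise from a myosin gene, had 42, 49, 20 and 27 counts. The heart-enriched miR-208a-3p had at most 7 counts.

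Among MyomiRs, miR-1a-3p and miR-206-3p went against what is known of skeletal muscle, where miR-1 is among the most abundant miRNAs and miR-206 is specific to the tissue. miR-1a-3p had 140, 150, 116 and 123 counts and stood at place 181 by mean CPM. miR-206-3p had 0, 1, 0 and 0 counts, and the other arm of its hairpin, miR-206-5p, had as many. The check for muscle thus rests on miR-133a-3p, miR-133b-3p and miR-486a-5p, which as MyomiRs do not single out TA. The cause of the low counts of miR-1a-3p and miR-206-3p was not tested. Of all 1623 listed miRNAs with a RefSeq sequence, 256 were expressed, and of 50 that begin with UGG and another base than A, 3 were. None of the 24 whose sequence begins with UGGA, as that of miR-206-3p does, was expressed. The 3′ adapter of the library kit is known to begin with the same letters (TGGA as DNA). How adapters were trimmed is not given in the sources used here, and its part in these counts was not tested, so they may not stand for levels in the muscle.

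Markers of other cells were present at graded levels. The 2 endothelial rows, miR-126a-5p and miR-126a-3p, summed to 31271 CPM ± 1098, although the former cannot be told apart from miR-126b-3p. The 2 smooth muscle rows (miR-143-3p and miR-145a-5p) summed to 58271 CPM ± 5630, and the 4 fibroblast rows to 4277 CPM ± 482. With the equal counts of miR-199a-3p and miR-199b-3p taken once, the fibroblast sum was 1965 to 2599 CPM. All 5 leukocyte rows were expressed with a sum of 913, 907, 658 and 789 CPM in Control 1 to 4, led by miR-150-5p, a lymphocyte miRNA, at 526 CPM ± 86.5. The 3 erythroid rows summed to 371, 308, 217 and 218 CPM, led by miR-451a. By library totals the erythroid and leukocyte sums were higher in Control 1 and 2 than in Control 3 and 4, without overlap, an order that 172 of the 289 expressed miRNAs had. With TMM factors the erythroid sum kept this order (345, 278, 245 and 230 CPM), while the leukocyte sum overlapped (850, 819, 741 and 834 CPM).

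Markers of organs not sampled were below the threshold, except miR-9-5p and miR-203-3p. The hepatocyte miRNA miR-122-5p had 1 count in all 4 libraries together, and miR-375-3p of endocrine cells had 2. miR-216a-5p and miR-217-5p of the pancreas and miR-122-3p were at 0 in all. For a count of 0 the upper 95% limit of 3 counts was 0.458 to 0.601 CPM in a library. The neuronal miR-124-3p had 3 counts in all, miR-9-3p had none, and miR-9-5p had 17 to 48 counts and passed the threshold. Of 7 epithelial rows, miR-203-3p, a keratinocyte miRNA, was expressed (17.8 CPM ± 3.25), and the 5 rows of the miR-200 family had at most 17 counts.

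The spread between the 4 control libraries, each from a different mouse, was modest but larger than counting error. Differences between mice and between library preparations cannot be told apart in it. The coefficient of variation (CV) of CPM had a median of 16.7% over the 289 expressed miRNAs, with 11.7 to 22.7% between the quartiles and a range of 2.46 to 53.4%. edgeR estimated a common biological coefficient of variation, the spread beyond counting, of 14.0%. By abundance, the median CV was 22.1% in the lowest quartile of miRNAs and 12.6% in the highest, while counting alone would give 15.7% and 0.996%. The observed variance was 7.72 times that of pure counting at the median, and 26 miRNAs showed no more than counting variance.

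Among miRNAs of at least 100 CPM, miR-145a-3p had the highest CV, 37.3%, and this rested on Control 1, with 63.0 CPM against 180, 157 and 155 CPM in the others. Without Control 1 its CV was 8.72%. The CV of miR-541-5p, 31.0%, rested on Control 4, with 562 CPM against 300, 330 and 350 CPM, and fell to 7.69% without it. miR-128-3p (29.7%), miR-451a (28.8%) and miR-10b-5p (28.1%) followed, and for each of these Control 1 and 2 did not overlap with Control 3 and 4. Neither did they for most expressed miRNAs by library totals, since 93 of the 289 overlapped. Among miRNAs of at least 100 CPM, miR-186-5p, from an intron of Zranb2, had the lowest CV by library totals (2.46%), with 2753, 2603, 2680 and 2634 CPM. Next were miR-125b-2-3p (3.48%), the rows miR-126b-3p and miR-126a-5p (both 4.18%) and miR-151-5p (4.49%). Without Control 1 the CV of miR-186-5p was 1.47% and that of the rows miR-126a-5p and miR-126b-3p 2.74%, and without Control 3 that of miR-151-5p was 1.95%. Both the low and the high values also depended on the scaling. With TMM factors the CV of miR-186-5p was 10.7% and that of miR-126a-5p 13.8%, whereas miR-26a-5p went from 11.5% to 1.60% and miR-16-5p from 9.74% to 2.19%. The CV of miR-10b-5p was then 37.7% and that of miR-191-5p 33.1%, against 21.1% for miR-128-3p and 20.5% for miR-451a.

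**Figure D5:**
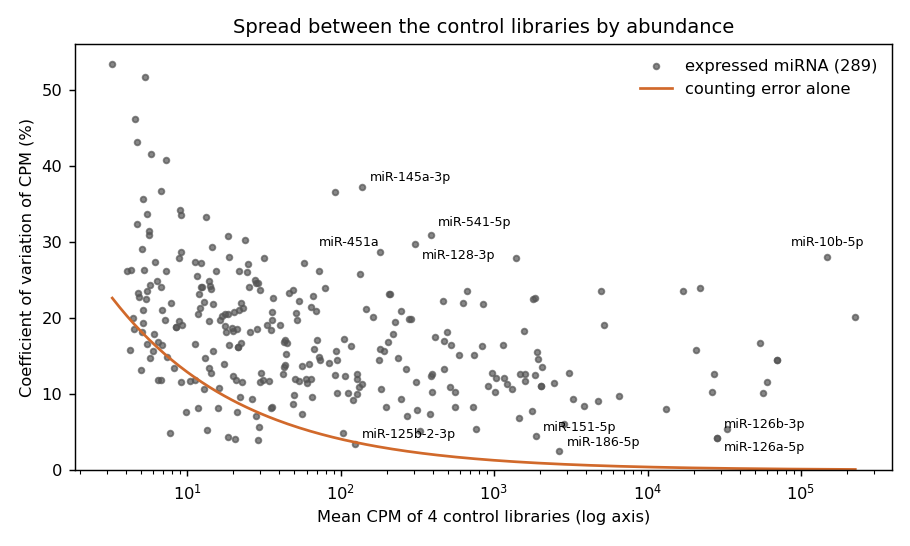
Coefficient of variation of CPM over 4 control libraries (%) against mean CPM (log axis) of 289 expressed miRNAs, with the 10 named miRNAs labelled and a line for counting error alone. Most points lie above the line, and the distance grows with abundance.

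The first principal component of log2 CPM held 64.3% of the variance and placed Control 1 (3.69) and Control 2 (2.53) opposite Control 3 (-3.71) and Control 4 (-2.51). The labels name no batch that would divide them. Of the 289 miRNAs, 172 had both Control 1 and 2 above Control 3 and 4 in CPM, 24 had the reverse and 93 overlapped. After TMM scaling these counts were 75, 74 and 140. TMM centers the ratios between libraries, which by itself brings the first 2 counts near each other, so their balance says nothing of the excess seen with library totals. miR-22-3p and miR-133a-3p stayed higher in Control 1 and 2 with either scaling, and miR-10b-5p, miR-10a-5p, miR-486a-5p and miR-191-5p stayed higher in Control 3 and 4.

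Across miRNAs, which are not independent replicates, Pearson's r of log2 CPM between 2 libraries was 0.994 to 0.997. At most 7 miRNAs differed over 2-fold within a pair. A chi-square statistic divided by its degrees of freedom was between 130 and 1432 for the 6 pairs. It would be near 1 if 2 libraries differed by counting error alone.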

How the data were processed

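Small RNA libraries of TA muscle (TruSeq Small RNA kit, 1000 ng total RNA with RIN above 8, HiSeq 2000, single-end 50 bp) were made by the authors. They mapped reads to miRBase 21 mature sequences with Bowtie, without mismatches in a seed of 8 bases and with all best hits kept, so a read can count at several rows. The deposited counts are whole numbers per mature miRNA, 1 table per library, without normalization or filter. FastQC, Bowtie, HTSeq and DESeq2 are named in the submitters' processing notes, without versions. Only the 4 control tables were used, grouped by title; the 5 tumor-bearing tables were not used.

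CPM was computed from library totals of 4992339 to 6548379 counts, and intervals and floors (3 counts) cover counting error only. miRNAs were expressed above 32 counts in at least 1 library, the study's criterion. The members, lists and naming rule were chosen with earlier results of these data known. Named were the 20 most abundant miRNAs, 10 families, 15 hairpins by arm ratio (at least 100 CPM over both arms), the 6 most abundant clusters and 3 most unequal clusters, 10 miRNAs by CV (at least 100 CPM), 6 at the threshold and all markers; other miRNAs, hairpins and clusters were added after their values were seen. With 1 group no difference between conditions was tested; a paired exact test over 4 libraries could not pass a threshold of 0.05. Arm ratios used a pseudocount of 1. Hairpin positions came from GENCODE M21 (GRCm38); all 289 expressed rows matched a hairpin gene. RefSeq names matched 256. Tools were R 4.3.3, edgeR 4.0.16 (TMM, common dispersion with an intercept), DESeq2 1.42.0 (size factors), Python 3.11, pandas 2.3.3, scipy 1.17.1 and matplotlib 3.10.9. The dispersion estimate was tested on simulated data. Alternatives covered the threshold, shared rows, scaling, pseudocounts, cluster distance, the level of a hairpin and leaving out each mouse.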

Additional observations from a re-analysis of the deposited data

Results flagged for a closer look

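Of 78 sets of 4 control values examined, 3 (3.85%) had a library whose gap to the nearest other exceeded Dixon's 95% critical share of the range for 4 values, which chance alone gives for about 5% of sets. miR-142a-3p, a leukocyte miRNA, had 19.8 CPM in Control 4 against 18.1 to 18.3 CPM in the others, a difference of few counts. The ratio of miR-181a-5p to miR-181b-5p was 13.5 in Control 1 against 17.4 to 17.6 in the others. This value stands for both the Mir181a-1 and the Mir181a-2 cluster, since they share their rows, so it is a single observation. The cause was not tested.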

How the results depend on the processing

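With at least 1 count as the threshold, 820 miRNAs were expressed in place of 289. The other thresholds gave 245 to 373, and leaving out each mouse gave 282 to 289. The share of the 5 most abundant miRNAs, 57.3%, was 60.3% with identical rows counted once, 65.4% with near-identical rows counted once, and 62.1% without miR-486b-5p and miR-126b-3p, an alternative chosen after seeing the data; each leaves rows out of the total by construction. Leaving out each mouse gave 56.7 to 57.9%. With families taken by name, the 6.999% of miR-486a-5p became 14.0%, since both miR-486 rows were then added. The shares of the miR-22 and miR-10 families, the arm classes, the number of clusters and the median CV stayed within their spread or within 1.5 times, and no hairpin named for a 5p or 3p arm changed its direction. For single miRNAs, families, hairpins and clusters, 87 of 593 alternatives moved a value beyond its spread or by over 1.5 times; 45 of these were totals without the 5 most abundant miRNAs, which raise every CPM. With both arms summed, the ratio of Mir133a-2 to Mir1a-1 was 488 in place of 968. Log2 arm ratios with a minor arm near 0 followed the pseudocount: for Mir133b -15.82 with 0.5 counts and -11.82 with 8 counts. Depth limits the minor arms and rows under about 10 CPM. No paired analysis was possible because a single group without a contrast was described.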

Other observations

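The listed miRNAs whose sequence in RefSeq begins with the same letters as miR-206-3p were also low. Of 24 that begin with UGGA, among them miR-7a-5p, miR-7b-5p, miR-184-3p and miR-139-3p, 0 were expressed, 6 had a count in any of the 4 control libraries and the highest mean was 4.50 CPM. Of 50 that begin with UGG and another base than A, 3 were expressed (miR-24-3p, miR-34a-5p and miR-379-5p). Of all 1623 listed miRNAs with a sequence, 256 were expressed, 653 begin with U, and 112 of those were expressed. These rows were looked at after the values of miR-206-3p had been seen, and the part of adapter trimming in them was not tested. miR-1a-3p was not among them, since its sequence was not in the table used.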
